A study of Tetranychus urticae with 4 samples.

Results

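The 4 genes described here, tetur22g02690, tetur22g02740, tetur22g02760 and tetur22g02790, code for putative antifreeze proteins of the two-spotted spider mite, *Tetranychus urticae*. They were taken from scaffold 22 of the mite genome by identifier, and all array spots naming them were read. They make up 4 of the 18217 genes with spots on the array and 4 of the 16 genes of this family that have spots. They were chosen from the genes of scaffold 22 that stand outside pairs of nearly identical copies, but for 1 of them that holds only on the array. Other family genes of scaffold 22 outside such pairs, tetur22g02700, tetur22g02780, tetur22g02800 and tetur22g02810, were not chosen. They are counted below with the rest of the family. The gene paired off the array is tetur22g02690. The authors' annotation pairs it with a nearly identical gene on another scaffold, tetur63g00090, which had 0 spots of its own. A transcript of either gene could therefore have hybridised to the tetur22g02690 probes.

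Antifreeze proteins bind to the surface of small ice crystals and slow their growth, which lowers the freezing point of a body fluid below its melting point. In beetles such as the yellow mealworm these proteins are small, rich in cysteine and threonine, and built of short repeats wound into a flat helix, with threonine side chains facing the ice and cysteines bridging the inside. Facultative diapause of spider mites is a winter arrest of adult females in which egg production stops, the body turns orange, and resistance to cold increases. Whether any of the 4 mite proteins binds ice was not measured in these data. Per the authors' annotation, the 4 genes have no introns, and all but tetur22g02690 code for a protein with a predicted signal peptide, the leader that directs a protein out of the cell.

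The sequences that the sources used here give for these genes are 2 pairs of quantitative PCR primers, and they are shown because they lie in the measured transcripts and show the spacing of triplets that can code for cysteine. In the forward primers TGT and TGC are in capitals, and in the reverse primers their complements ACA and GCA, all read 5′ to 3′; the reading frame was not determined.
tetur22g02690 forward: TGTacccgaTGTaacgatTGTg
tetur22g02690 reverse: tgctcttcttggACActtcttg
tetur22g02790 forward: cacaccttctactggctctgg
tetur22g02790 reverse: caacccACAcaatttACAcag
The forward primer of tetur22g02690 holds 3 TGT triplets, each starting 9 bases after the one before. The reverse primer of tetur22g02790 holds 2 marked ACA triplets that also start 9 bases apart, and a further ACA overlaps each of them. Of the other 30 primers in the same table, 3 (10%) held such a pair in the same sense. All 3 are primers of other antifreeze protein genes, tetur22g02640, tetur22g02670 and tetur22g02730. The spacing is therefore not particular to the genes described here. Primers or probe sequences of tetur22g02740 and tetur22g02760 were not used here.

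Diapausing adult females, labelled with the red dye Cy5, were compared with non-diapausing adult females, labelled with the green dye Cy3, on 4 Agilent arrays of 1 slide. Both groups belonged to the LS-VL strain, a green laboratory strain, and had grown from the larval stage under the same inducing conditions of 17 °C, 80% relative humidity and 8 h of light to 16 h of dark, so that entry into diapause set them apart. Each of the 4 replicates was RNA from whole, pooled females of each group. More cells of a type and more RNA per cell therefore cannot be told apart. The authors pooled more females for each diapausing replicate than for each non-diapausing replicate. Diapausing mites carried Cy5 on all 4 arrays, so an effect of the dye cannot be told apart from an effect of diapause. The labels do not say whether the replicates came from separate rearings, and the p-values measure the spread between these 4 arrays.

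Each array held 61657 gene spots, of which 69.2 to 72.1% were well above background in diapausing mites and 67.2 to 69.5% in non-diapausing mites. The log2 ratios of the arrays correlated with one another across genes with r from 0.877 to 0.914; genes are not independent replicates. Over the 14986 genes tested, 1355 (9.04%) were upregulated and 1364 (9.1%) downregulated, where a call needed a change of at least 2-fold and an adjusted p below 0.05 in limma. That split depended on scaling: after scaling to the spike-in RNA controls, 2788 genes were upregulated and 912 downregulated, and the median log2 ratio of all genes was 0.47, against 0.10 before it. The labels were set beside 6 vitellogenin genes, which code for yolk proteins made by egg-laying females. The authors name these 6 among the most downregulated genes of the same arrays. Their direction was therefore fixed by that choice and is no independent check of the labels. All 6 were lower in diapausing mites on all 4 arrays, but replicate 4 stood apart. The median vitellogenin signal of diapausing mites was 4669 on replicate 4 and 159, 547 and 239 on the arrays of replicates 1 to 3, against 216436 to 283805 in non-diapausing mites.

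All 4 genes were upregulated in diapausing mites, with a ratio above 2-fold on every array (4 of 4, beside 9.04% of all genes tested). For tetur22g02740 and tetur22g02760 that share is a poor yardstick, since both entered the test only through their diapausing signal. Of the 501 genes tested whose non-diapausing signal was never well above background, 319 were upregulated. Each gene had 3 probes, none of which listed a second gene, and none of the 48 spots was saturated or marked as an outlier by the scanner software. All 12 spots of every gene were well above background in diapausing mites. In non-diapausing mites the genes fell apart: 12 of 12 spots of tetur22g02790 were well above background, 2 of 12 of tetur22g02690, and 0 of 12 of tetur22g02740 and of tetur22g02760. Raw signals, before any subtraction, were also set against the 99th percentile of the 308 negative control spots of the same array and dye, a more lenient limit for tetur22g02690. All 12 spots of each gene exceeded it in diapausing mites, while in non-diapausing mites 12 spots of tetur22g02790, 7 of tetur22g02690, 1 of tetur22g02740 and 0 of tetur22g02760 did.

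tetur22g02690, the member without a predicted signal peptide, had a processed signal of 4108, 3886, 3929 and 2742 in diapausing mites on replicates 1 to 4, against 31.1, 23.7, 31.6 and 10.6 in non-diapausing mites (geometric means of 3 probes, in units of the scanner software). The groups were far apart on every array, and both signals were lowest on replicate 4. The log2 ratio, the log2 of the diapausing over the non-diapausing signal, was 7.05, 7.36, 6.96 and 8.01. Its mean was 7.34 ± 0.48 (SD, n = 4), a fold change of 162 with an adjusted p of 4.56e-05 in limma. The size of that change rests on a dim denominator. Its second probe was well above background in non-diapausing mites on replicates 1 and 3, with signals of 6581 and 6329 in diapausing mites against 44.4 and 51.2 in non-diapausing mites. The log2 ratios of that probe on those arrays were 7.21 and 6.95, which lie within the range of the other spots of the gene, 6.71 to 8.41.

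tetur22g02740 had signals of 215, 206, 176 and 146 in diapausing mites, against 10.4, 10.3, 7.69 and 7.65 in non-diapausing mites. The diapausing signal was again lowest on replicate 4, and all non-diapausing signals lay below 26.8 to 32.7, the lowest processed signals that the software marked as well above background in the green channel of each array. The log2 ratios were 4.36, 4.32, 4.51 and 4.25, with a mean of 4.36 ± 0.11 (SD, n = 4), a fold change of 20.6 and an adjusted p of 3.56e-05 in limma. Since non-diapausing mites had no spot well above background, that value depends on how the software sets its dimmest signals. A lower bound was taken on a scale with another background correction (normexp, offset 50, which compresses dim signals). Non-diapausing signals below the dimmest signal well above background on the same array were raised to it, and the others were kept as measured. The mean non-diapausing log2 signal was 6.25 after raising and 6.23 as measured, so raising changed it little. The bound was at least 2.28-fold higher in diapausing mites. The close ratios of the 4 arrays hide a wider spread between probes, whose log2 ratios on 1 array differed by 0.46 to 1.75.

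tetur22g02760 had signals of 149, 165, 132 and 71.98 in diapausing mites, against 9.11, 10.3, 8.46 and 7.87 in non-diapausing mites. Replicate 4 was the lowest in both groups, and the groups did not overlap. The log2 ratios were 4.03, 4.00, 3.97 and 3.19, with a mean of 3.80 ± 0.40 (SD, n = 4), a fold change of 13.9 and an adjusted p of 0.000108 in limma. As for tetur22g02740, only a bound was measured, at least 1.88-fold higher in diapausing mites on the same scale. That bound lies below the 2-fold change that a call needs, so it does not secure the call. The 3 probes of this gene disagreed. Their mean log2 ratios were 4.77 ± 0.68, 4.26 ± 0.45 and 2.37 ± 0.43 (SD, n = 4 each), and the third was the lowest on all 4 arrays, from 1.90 to 2.74. In the median over probes, which gives the third probe less weight, the log2 ratio of the gene was 4.26.

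tetur22g02790 was the only one of the 4 genes with both groups well above background in every spot. Its signals were 706, 732, 737 and 810 in diapausing mites, against 91.1, 78.1, 87.6 and 99.5 in non-diapausing mites. The highest and the lowest array differed by 1.15-fold in diapausing mites and by 1.27-fold in non-diapausing mites, and the groups did not overlap. The log2 ratios were 2.95, 3.23, 3.07 and 3.03, with a mean of 3.07 ± 0.12 (SD, n = 4), a fold change of 8.40 and an adjusted p of 3.98e-05 in limma. Its probes gave mean log2 ratios of 3.12 ± 0.19, 2.97 ± 0.22 and 3.12 ± 0.20 (SD, n = 4 each).

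**Figure D1:**
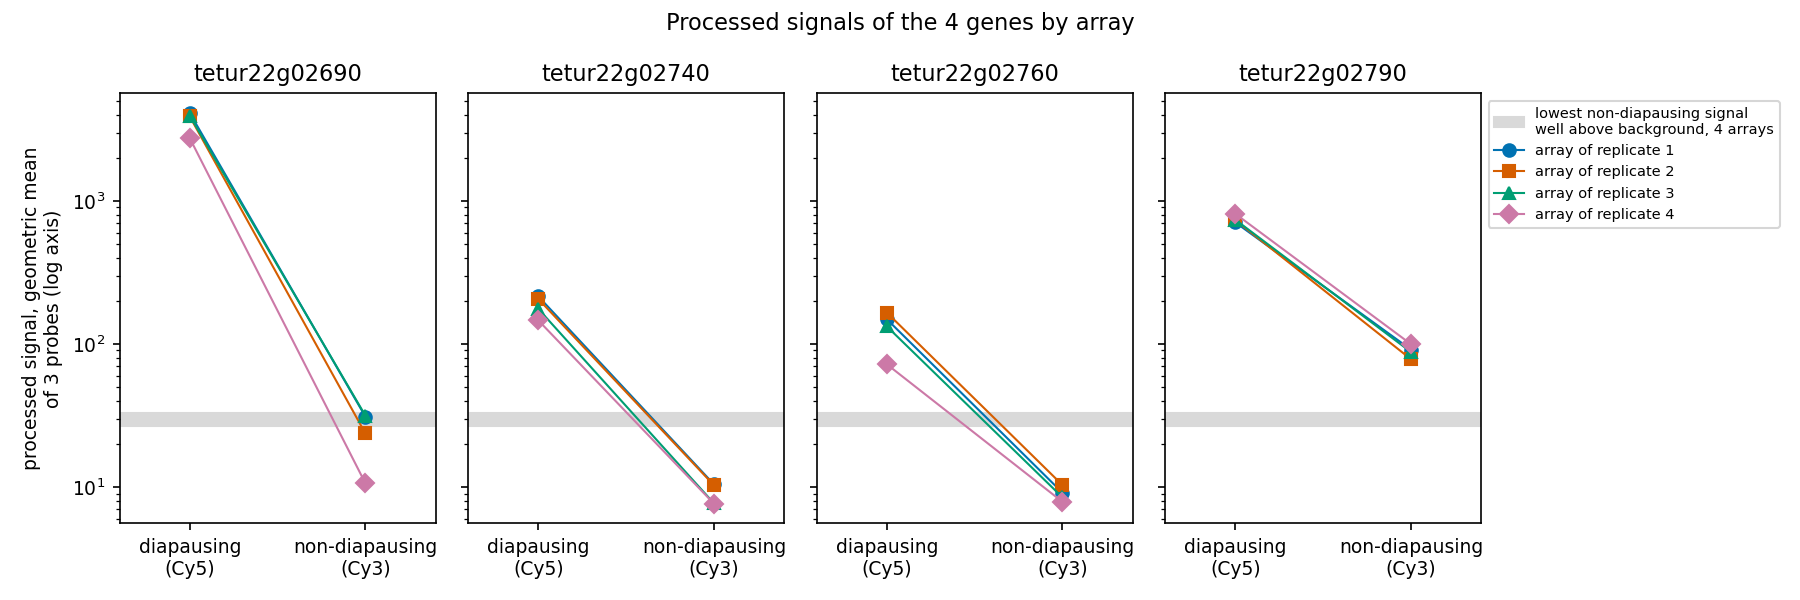
Processed signal (geometric mean of 3 probes, log axis) of each gene in diapausing (left) and non-diapausing mites (right), 1 line per array. The grey band spans 26.8 to 32.7, the lowest non-diapausing signals marked as well above background on the 4 arrays; tetur22g02740 and tetur22g02760 lie below it in non-diapausing mites and tetur22g02790 above it.

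The plot of signals by array shows why the 4 fold changes are not equally firm. The diapausing signal of every gene lay above the band of the dimmest detected green signals. The non-diapausing signal lay above the band for tetur22g02790, at or below it for tetur22g02690, and below it for the other two. The plot of single probes shows the same in filled and open points, and shows the low values of the third probe of tetur22g02760.

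**Figure D2:**
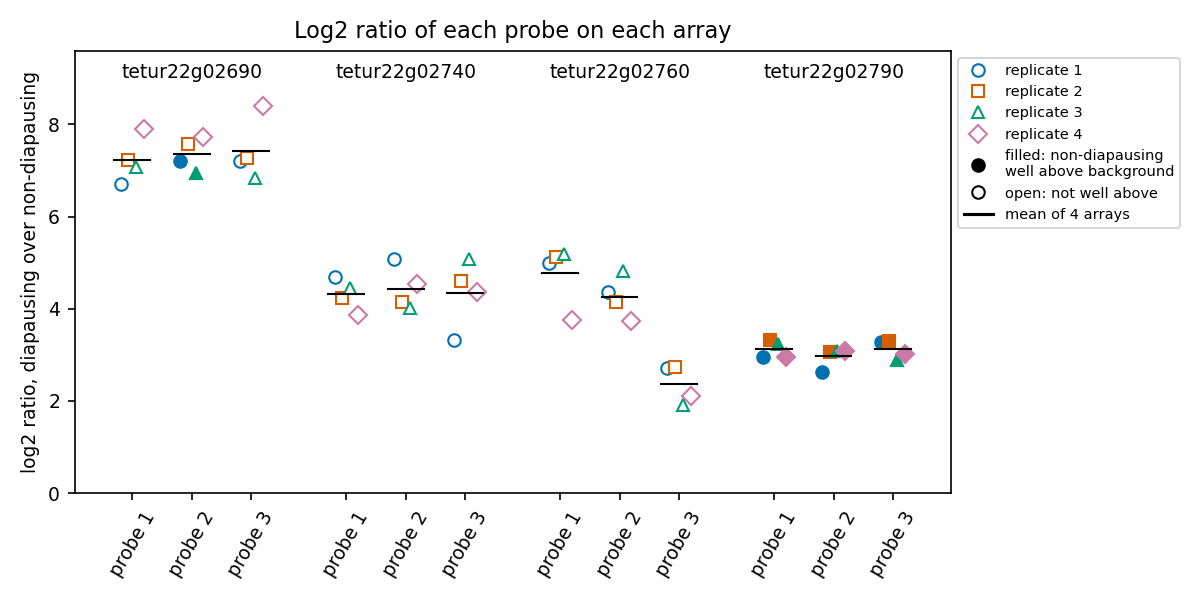
Log2 ratio, diapausing over non-diapausing, of each of the 3 probes of each gene on the 4 arrays, with the mean of each probe as a bar. Filled points mark spots with non-diapausing mites well above background, which are all 12 spots of tetur22g02790 and 2 of tetur22g02690; the third probe of tetur22g02760 has a mean of 2.37, against 4.77 and 4.26 for the others.

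Replicate 4, whose diapausing RNA held the most vitellogenin signal, held the lowest processed diapausing signals of tetur22g02690, tetur22g02740 and tetur22g02760. It held the highest of tetur22g02790. In raw diapausing signals, before any subtraction, replicate 1 and not replicate 4 was lowest for every probe of tetur22g02690 and tetur22g02740. For tetur22g02760 replicate 4 was lowest in the first probe only, and for tetur22g02790 it was highest in every probe. Without replicate 4 the mean log2 ratios were 7.12 for tetur22g02690, 4.40 for tetur22g02740, 4.00 for tetur22g02760 and 3.09 for tetur22g02790, and all 4 remained upregulated in limma, with adjusted p-values from 0.000315 to 0.00041. The part of the vitellogenin difference in these values was not tested.

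With the ratios of the scanner software, the order of the 4 genes was the same on every array, tetur22g02690 first, then tetur22g02740, tetur22g02760 and tetur22g02790. The log2 ratio of tetur22g02690 exceeded that of tetur22g02740 by 2.98 ± 0.57, that of tetur22g02760 by 3.55 ± 0.86 and that of tetur22g02790 by 4.27 ± 0.49 (SD, n = 4). That of tetur22g02740 exceeded that of tetur22g02760 by 0.57 ± 0.35, with single arrays between 0.32 and 1.06, and that of tetur22g02790 by 1.29 ± 0.16. That of tetur22g02760 exceeded that of tetur22g02790 by 0.73 ± 0.39, with single arrays between 0.17 and 1.07. For each of the 6 pairs the exact two-sided sign-flip permutation test gave p = 0.125, also after Benjamini-Hochberg adjustment over the 6, which is the smallest p that 4 arrays allow. None of the pairs could therefore pass a threshold of 0.05.

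Only the first place in that order held under another background correction. With normexp and loess, the log2 ratios of replicates 1 to 4 were 4.29, 4.45, 4.71 and 4.42 for tetur22g02690 and 1.76, 1.98, 2.09 and 2.14 for tetur22g02790. On the same scale they were 1.20, 1.17, 1.39 and 1.08 for tetur22g02740 and 1.06, 1.10, 1.16 and 0.77 for tetur22g02760. Thus tetur22g02790 came second on all 4 arrays, ahead of the pair of genes whose non-diapausing signal was not well above background. The means under normexp and loess were 4.47, 1.21, 1.02 and 1.99 for tetur22g02690, tetur22g02740, tetur22g02760 and tetur22g02790, in that order. The fold change of tetur22g02690 was then 22.1 in place of 162, and that of tetur22g02790 was 3.98 in place of 8.40. All 4 genes remained upregulated in limma, with adjusted p-values from 2.47e-07 to 4.95e-05. How tetur22g02740 and tetur22g02760 stand to tetur22g02790 was not settled by these data.

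**Figure D3:**
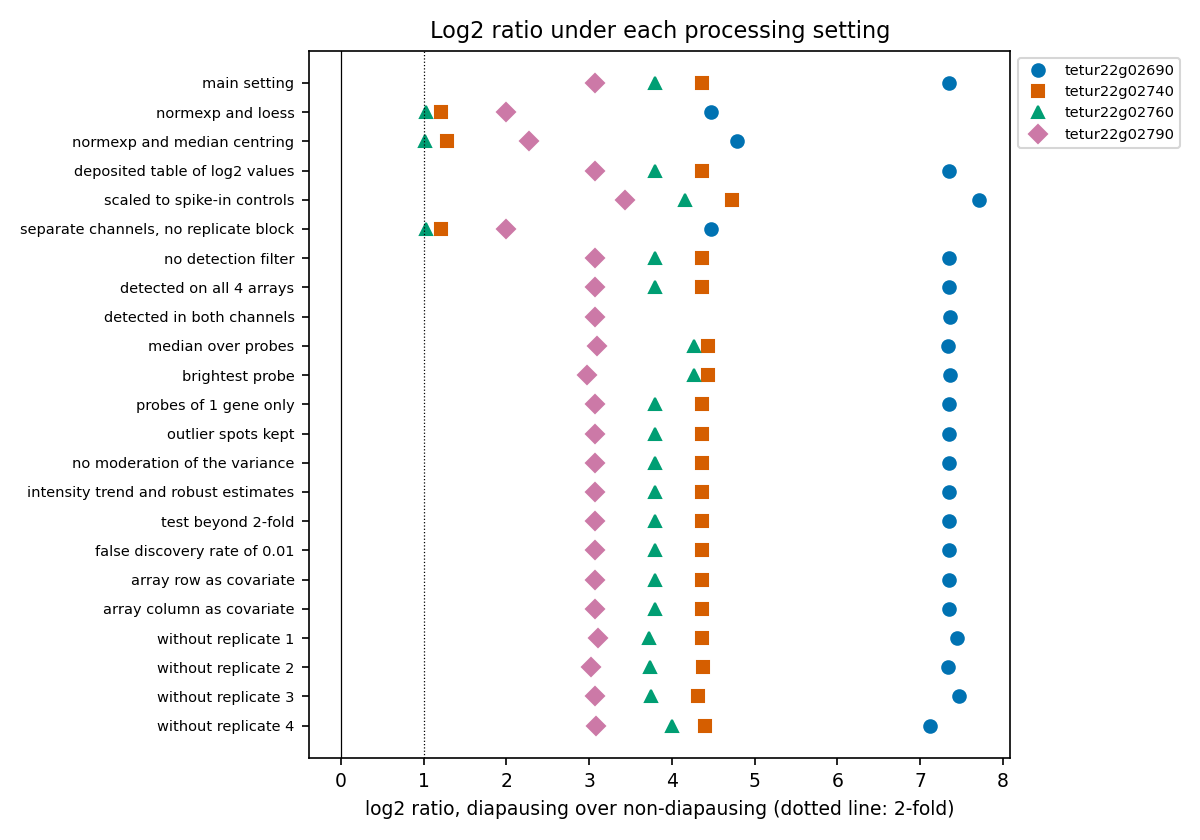
Log2 ratio, diapausing over non-diapausing, of the 4 genes under the main setting (first row) and each alternative. All values lie to the right of the dotted line at 2-fold; under the settings with normexp tetur22g02790 lies above tetur22g02740 and tetur22g02760, and tetur22g02740 and tetur22g02760 have no value where detection in both channels was required.

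The 4 genes were then set beside the rest of their family. All 16 family genes with spots were upregulated in diapausing mites and on all 4 arrays (16 of 16, beside 9.04% of all genes tested). The 12 others had log2 ratios from 1.91 for tetur22g02550 to 5.52 for tetur22g02640, with a median of 3.56. The median of the 4 genes was 4.08, and that of all genes tested 0.10, but the order of the medians of the 4 genes and the 12 others depended on the background correction. They were 1.60 for the 4 genes and 2.23 for the 12 others with normexp and loess, and 1.78 and 2.50 with normexp and median centring. With the ratios of the scanner software tetur22g02690 had the highest ratio of the family, and 4 of the 16 genes had a lower ratio than tetur22g02790. With normexp and loess tetur22g02690 lay at 4.47, behind tetur22g02640 at 5.30 and tetur63g00030 at 5.04, and it also lay behind both of these genes with median centring. tetur22g02740 and tetur22g02760 were the only 2 of the 16 genes for which non-diapausing mites were well above background on no array. Such a gene could enter the test only through its diapausing signal, so its direction was in large part set by the detection filter. At the same cut-offs for fold change and adjusted p, the authors' list of upregulated family genes leaves out both tetur22g02740 and tetur22g02760. Their detection filter may differ, since the methods do not say which channel had to be detected. Where detection in both channels was required here, the same pair dropped out and 14 family genes were called. The part of the filter in this difference was not tested.

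**Figure D4:**
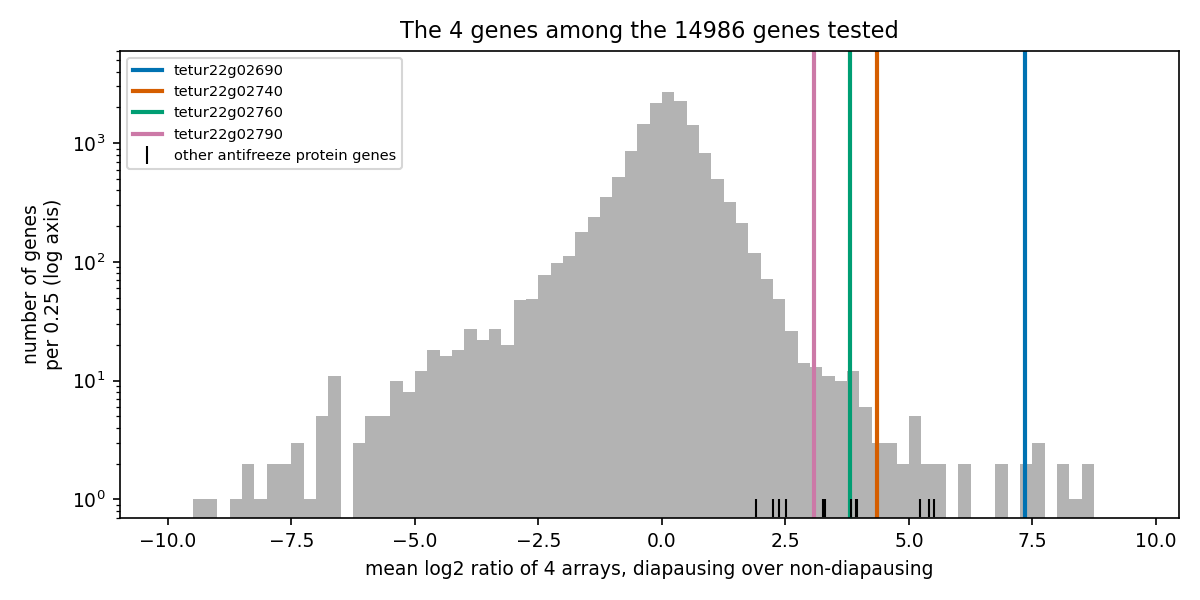
Number of genes (log axis) by mean log2 ratio of 4 arrays, diapausing over non-diapausing, for the 14986 genes tested, with the 4 genes as vertical lines and the other 12 antifreeze protein genes as ticks. The median of all genes is 0.10, and the lines stand at 3.07, 3.80, 4.36 and 7.34; those at 3.80 and 4.36 rest on non-diapausing signals not well above background.

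In the plot of all genes the 4 lines lie in the sparse right-hand tail. By mean log2 ratio of the scanner software, tetur22g02790, measured in both groups, was the 77th of the 14986 genes. No rank is given for tetur22g02740 and tetur22g02760, for which only bounds were measured.

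Next, genes with neighbouring identifiers on scaffold 22 were examined, from tetur22g02550 to tetur22g03073; coordinates were not used here. Within this stretch 33 genes outside the family had spots and 22 could be tested. Of these, 4 were upregulated, 4 downregulated and 14 not called, beside 9.04 and 9.1% of all genes, and their median log2 ratio was 0.18. The identifier before tetur22g02690 is tetur22g02680, a gene outside the family, with log2 ratios of 3.98, 4.38, 3.97 and 3.81 and a mean of 4.03 ± 0.25 (SD, n = 4). The identifier after it is the family gene tetur22g02700, with a mean of 3.83 ± 0.30. Both neighbours were thus upregulated, and both had lower ratios than tetur22g02690 on all 4 arrays.

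tetur22g02740 stands between the family gene tetur22g02730, with a mean log2 ratio of 2.37 ± 0.17, and tetur22g02750, with 3.50 ± 0.40 (SD, n = 4 each). tetur22g02750 lies outside the family and also precedes tetur22g02760, and 2 of its 4 probes list tetur22g02991 as well, so part of these values belongs to either gene. The gene after tetur22g02760, tetur22g02770, had spots but none that passed detection. tetur22g02790 stands between 2 family genes, tetur22g02780 with a mean log2 ratio of 5.22 ± 0.22 and tetur22g02800 with 2.51 ± 0.42 (SD, n = 4 each). Besides tetur22g02680 and tetur22g02750, the upregulated genes outside the family were tetur22g02930, at 1.32, and tetur22g02991, at 3.01. The function of none of these 4 genes is given in the sources used here.

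**Figure D5:**
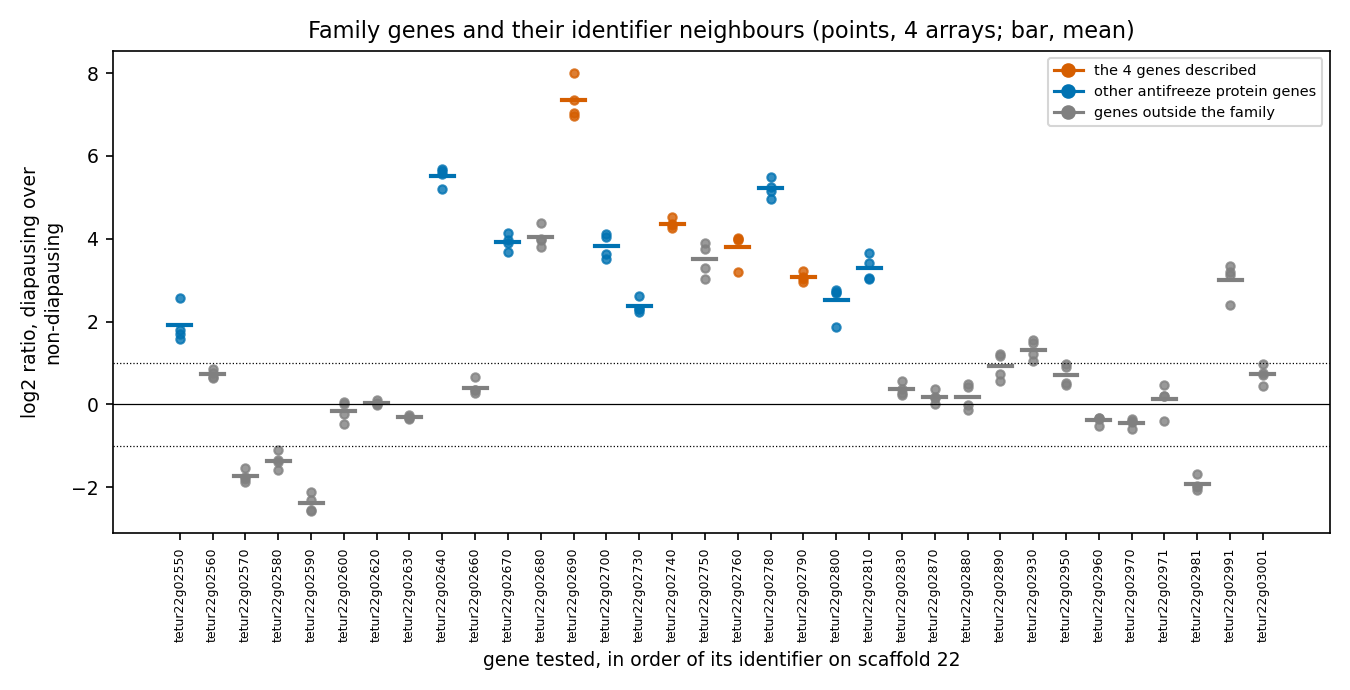
Log2 ratio, diapausing over non-diapausing, of genes tested on scaffold 22 in order of identifier, with points for the 4 arrays, bars for means and dotted lines at 2-fold. All family genes lie above the upper dotted line, and tetur22g02680, tetur22g02750 and tetur22g02991 outside the family lie among them in level, at 4.03, 3.50 and 3.01.

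The plot by identifier shows ratios from 1.91 to 7.34 within the family cluster, and steps of over 3 log2 units between direct neighbours, as from tetur22g02680 to tetur22g02690. Ratios outside the family in this stretch reached down to -2.39.

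Finally, genes outside the family with the most similar ratios were sought, as the smallest Euclidean distance between the 4 log2 ratios of 2 genes. Closest to tetur22g02690 was tetur30g01860 (distance 0.71), with log2 ratios of 7.15, 7.17, 7.61 and 8.20, followed by tetur11g05010 (1.06) and tetur17g03540 (1.16). All 3 are annotated as hypothetical proteins, and all 3 were well above background in non-diapausing mites on 4 of 4 arrays, against 2 of 4 for tetur22g02690. Closest to tetur22g02740 was tetur22g02680 (0.80), the identifier before tetur22g02690, then tetur30g01890 (0.82) and tetur39g00780 (0.87). Closest to tetur22g02760 were tetur06g06030 and tetur06g06669 (0.58 for both), which share all 3 probes and are 1 measurement, and tetur12g00580 (0.60). Of the genes named for tetur22g02740 and tetur22g02760, the pair tetur06g06030 and tetur06g06669 was, like those 2 genes, well above background in non-diapausing mites on 0 of 4 arrays. Closest to tetur22g02790 were tetur08g05250 (0.195), tetur02g14420 (0.31) and tetur36g00950 (0.32), with mean log2 ratios of 3.08, 3.16 and 3.04. Some of these matches are not specific to 1 gene. Another gene was also listed by 3 of 5 probes of tetur11g05010, 2 of 3 of tetur39g00780 and 3 of 4 of tetur02g14420. The 4 arrays are the only points behind these distances. For tetur22g02690, tetur22g02740 and tetur22g02760 the distances also depend on how the software sets its dimmest signals. Their mean log2 ratios were 7.34, 4.36 and 3.80 here, but 4.47, 1.21 and 1.02 with normexp and loess.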

How the data were processed

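Diapausing (Cy5) and non-diapausing (Cy3) females were compared on 4 two-colour arrays. The authors extracted the scans with Agilent Feature Extraction (version 10.7.1.1 per the file headers), and the deposited files hold intensities per channel, already background-subtracted and dye-normalised, and their ratio on a log10 scale. A deposited table of log2 values holds the log2 ratio of the processed signals for 100% of spots (tolerance 0.001). Ratios were converted to log2. Spots marked as outliers were left out, spots of a probe were averaged, and probes were used where either channel was well above background on 2 or more arrays, which kept 40349 of 56184 probes. Probe values were averaged per gene and tested against 0 with limma 3.58.1 (R 4.3.3; lmFit, eBayes, Benjamini-Hochberg over 14986 genes). The script was tested on simulated data. Arrays give no counts, so the number of arrays limits the precision.

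The ratio within an array pairs the samples. Alternatives covered background correction, scaling, detection filter, summary of probes, variance model, slide position and each array left out. The text names the 4 members; other family genes in ranges and counts, with the highest and lowest; direct identifier neighbours; and the 3 nearest genes by Euclidean distance. A few further genes of the stretch were named after their values were seen. Members and lists were chosen with earlier results of these data known. The reference table used here (assembly NJAU_TeUrti_SD_1.0) matched none of the identifiers, and quantitative PCR values were not analysed here. Figures were drawn with matplotlib.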

Additional observations from a re-analysis of the deposited data

Results flagged for a closer look

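Of 12 groups of 4 arrays checked (the log2 ratio and both signals of each gene), 2 held an array whose gap to the nearest of the others, divided by the whole range of the group, exceeded Dixon's critical value for 4 samples; chance marks about 1 in 20 groups. The log2 ratio of tetur22g02760 was 3.19 on replicate 4, against 3.97 to 4.03 on the others, a gap of 0.93 of the range. The processed diapausing signal of tetur22g02690 was 2742 on replicate 4, against 3886 to 4108 on the others, a gap of 0.863 of the range on the log2 scale. Raw signals of this gene were not lowest on replicate 4.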

How the results depend on the processing

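The 4 genes stayed upregulated in limma under every alternative that gave a value. These were 22 for tetur22g02690 and tetur22g02790 and 21 for tetur22g02740 and tetur22g02760. The latter pair could not be tested where detection in both channels was required. Its direction was in large part set by the detection filter, and the bound of tetur22g02760, 1.88-fold, lies below the 2-fold cut-off. The log2 ratios of the 4 genes ranged from 4.47 to 7.71 for tetur22g02690, 1.21 to 4.73 for tetur22g02740, 1.01 to 4.26 for tetur22g02760 and 1.99 to 3.43 for tetur22g02790. The low ends came from normexp. The 16 upregulated family genes became 15 without a detection filter and 14 with detection in both channels.

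Under normexp with loess and with median centring, alternatives added after the data were seen, the difference of tetur22g02740 minus tetur22g02790 turned to -0.78 and -0.99 and that of tetur22g02760 minus tetur22g02790 to -0.97 and -1.26, that of tetur22g02690 minus tetur22g02790 moved to 2.48 and 2.52, and that of tetur22g02740 minus tetur22g02760 to 0.18 with loess; the cause was not tested. Over all genes, upregulated and downregulated counts were 337 and 804 with normexp and loess, also in separate channels with no replicate block (no pairing within arrays), where the 4 genes kept their calls. They were 644 and 603 with normexp and median centring and 455 and 708 in a test beyond 2-fold. Scaled to spike-in controls 2788 were upregulated, and 903 with detection in both channels. Leaving out single arrays gave 1271 to 1381 upregulated and 1329 to 1391 downregulated genes, and differences between members stayed positive.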
